A study of Saccharomyces cerevisiae with 4 samples.

Results

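The chitosan and dityrosine spore wall genes are 9 genes of Saccharomyces cerevisiae whose products build the outer layers of the ascospore wall. They were taken by systematic name from the 6690 reading frames listed in each library, and all 9 were found. In order of action they are CHS3 (YBR023C), CDA1 (YLR307W) and CDA2 (YLR308W) for the chitosan layer, DIT1 (YDR403W), DIT2 (YDR402C) and DTR1 (YBR180W) for dityrosine, and OSW1 (YOR255W), OSW2 (YLR054C) and CRR1 (YLR213C) for assembly of the wall. RNA was sequenced from a sir2Δhst1Δ strain, in 2 libraries, and from a WT strain, in 2 libraries, both growing exponentially in YPD, a rich glucose medium. The labels give the deletions as hst1D::KanMX and sir2D::TRP1, and HMR as hmrD::ura3 in the sir2Δhst1Δ strain. In WT they give the same locus as hmr::ura3 and add the word GAL. Both strains are of the alpha mating type and carry can1-100, his3-11 and lys2D together with trp1-1, ura3-1 and the double leucine allele of leu2-3 and leu2-112. Each genotype is 1 strain, and the series calls its 2 libraries technical replicates, so the p-values here measure the spread between libraries and not between cultures. The TRP1 and KanMX markers and the labels for HMR and GAL differ between the strains along with SIR2 and HST1. Effects of these differences and of the deletions cannot be told apart.

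Sir2 and Hst1 are related NAD+-dependent deacetylases. Hst1 is recruited with Rfm1 by the DNA-binding protein Sum1 and keeps middle sporulation genes silent in cells that grow by mitosis, and the activator Ndt80 turns those genes on during meiosis through an overlapping DNA element. The spore wall is laid down after meiosis. Its inner layers of mannan and glucan resemble the vegetative wall, while the outer layers of chitosan and dityrosine are particular to spores and protect them from enzymes, solvents and heat. A haploid alpha strain in rich medium does not normally make spores, and most of these genes are known for spores alone. Sir2 also silences the spare mating-type loci, of which HMR is disrupted in both strains. CHS3 is the exception, since it also makes most of the chitin of the vegetative wall.

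Most of the 9 genes were higher in the sir2Δhst1Δ libraries. By limma on log2(FPKM + 1), with Benjamini-Hochberg adjustment over 6370 tested genes and a threshold of 0.05, 7 were higher and 0 were lower (0 also lower at an unadjusted p under 0.05). Among all tested genes 6.75% were higher and 2.79% were lower. All 9 passed the filter of at least 1 FPKM in at least 2 libraries, but CDA2 and OSW1 did so through the sir2Δhst1Δ libraries alone. CDA1, CDA2, OSW1, DTR1, CRR1 and DIT1 passed with a log2 difference of at least 1, as 3.31% of tested genes did. OSW2 rose by less, and DIT2 and CHS3 did not pass. In bulk RNA, more cells with a transcript and more of it in each cell cannot be told apart. The median log2 difference of the 9 genes was 1.91, against -0.01 over all tested genes. Without CHS3, the FPKM of the other 8 genes summed to 288 and 291 in the sir2Δhst1Δ libraries, against 35.3 and 34.05 in the WT libraries. A blastn search of the R64 reference found no near-identical copy of any of the 9 genes, with 95% identity and 50% of the length as the limits.

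**Figure D1:**
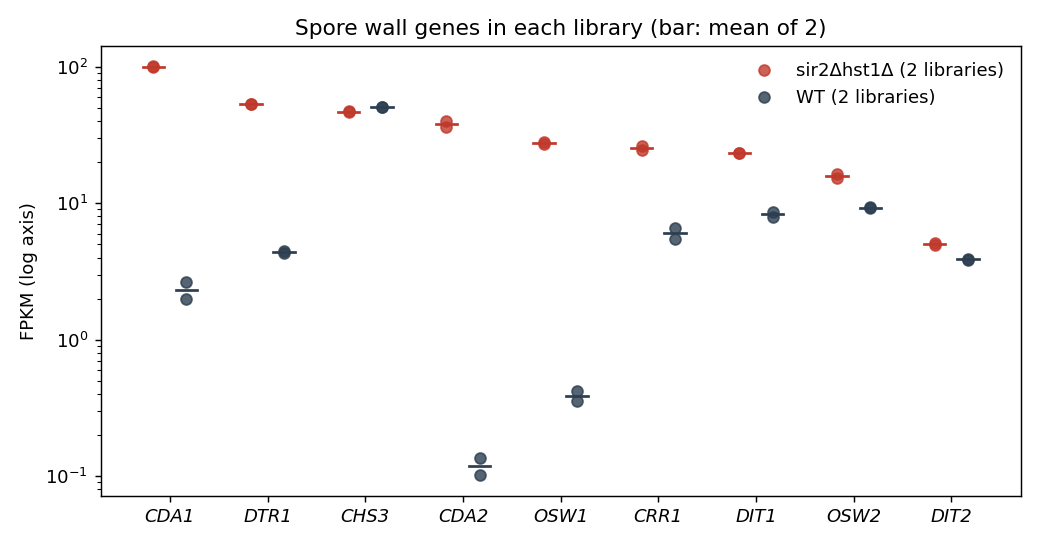
FPKM of each of the 9 genes (log axis) in the 2 sir2Δhst1Δ and the 2 WT libraries; each point is a library and each bar the mean of 2. The sir2Δhst1Δ points lie far above the WT points for CDA1, CDA2, OSW1 and DTR1, and the pairs lie close together for CHS3 and DIT2.

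The DNA upstream of the genes is shown first, because middle sporulation genes are known for a shared element there. The element bound by Ndt80 and Sum1 is known for the core word CACAAAA. Both strands were searched for this word, for its variant CACAAAT and, with CG at the front, for the words CGCAAAA and also CGCAAAT. No matches overlapped. Sequences are from R64 (RefSeq, strain S288C), matched by systematic name. They may differ from the strains used, and the build behind the FPKM values is not given in the sources used here. The last 200 bases before the start codon are given 5′ to 3′ on the strand of the gene for 4 genes with a match there and for the 2 strongly changed genes without one, with the matches in capitals. CDA1 is chrXII:745420-745619 and CDA2 chrXII:747737-747936 on the + strand, CRR1 chrXII:567923-568122 and OSW2 chrXII:250979-251178 on the - strand, and DTR1 chrII:589541-589740 and OSW1 chrXV:807071-807270 on the + strand.
CDA1: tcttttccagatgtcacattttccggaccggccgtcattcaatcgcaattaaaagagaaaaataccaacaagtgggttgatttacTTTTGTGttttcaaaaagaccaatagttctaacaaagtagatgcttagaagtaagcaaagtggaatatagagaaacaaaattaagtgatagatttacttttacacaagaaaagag
CDA2: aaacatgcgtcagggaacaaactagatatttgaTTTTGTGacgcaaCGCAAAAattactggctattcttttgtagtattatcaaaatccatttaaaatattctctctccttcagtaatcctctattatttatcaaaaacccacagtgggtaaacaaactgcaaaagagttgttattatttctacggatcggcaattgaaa
CRR1: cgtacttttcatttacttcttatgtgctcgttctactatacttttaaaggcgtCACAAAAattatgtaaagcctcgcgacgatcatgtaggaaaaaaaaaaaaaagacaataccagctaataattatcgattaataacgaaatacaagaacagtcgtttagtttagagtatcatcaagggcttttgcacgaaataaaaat
OSW2: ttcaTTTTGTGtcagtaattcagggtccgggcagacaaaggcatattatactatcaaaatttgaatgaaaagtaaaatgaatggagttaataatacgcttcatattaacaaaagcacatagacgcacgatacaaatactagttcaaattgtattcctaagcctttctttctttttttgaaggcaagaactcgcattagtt
DTR1: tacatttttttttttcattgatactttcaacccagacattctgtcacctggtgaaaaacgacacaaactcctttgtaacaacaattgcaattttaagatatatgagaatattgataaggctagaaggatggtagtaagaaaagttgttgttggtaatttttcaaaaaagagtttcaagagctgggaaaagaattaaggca
OSW1: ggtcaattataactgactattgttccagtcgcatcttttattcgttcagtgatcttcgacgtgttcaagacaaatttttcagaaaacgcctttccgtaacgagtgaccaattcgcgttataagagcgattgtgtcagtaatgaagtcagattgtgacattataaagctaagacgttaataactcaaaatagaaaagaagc

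DIT1 and DIT2 lie head to head and are transcribed away from each other, so that 1 stretch of 898 bases is upstream of both. The 300 bases of it from 600 to 301 before the start codon of DIT1 (chrIV:1274002-1274301, + strand) are shown because they hold both of its matches.
DIT1 and DIT2, shared region: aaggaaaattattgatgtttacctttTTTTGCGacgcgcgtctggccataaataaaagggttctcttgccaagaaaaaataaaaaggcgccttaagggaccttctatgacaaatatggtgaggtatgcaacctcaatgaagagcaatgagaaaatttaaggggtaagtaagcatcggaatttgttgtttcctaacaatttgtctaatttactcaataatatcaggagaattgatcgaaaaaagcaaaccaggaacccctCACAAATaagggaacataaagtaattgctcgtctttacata

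Within 600 bases of the start codon, 7 of the 9 genes had a match, against 35.5% of 6018 protein-coding genes in R64. Within 200 bases 4 of the 9 had one, against 13.5% of genes. CDA1 had 1 match, beginning 115 bases before the start codon. CDA2 had 3, at 543, 167 and 154 bases. CRR1 and OSW2 had 1 each, at 147 and 196 bases. For DIT1 the matches began at 574 and 341 bases, and the same letters stood at 564 and 331 bases before the start codon of DIT2. CHS3 had 2, at 444 and 416 bases. For OSW1 and OSW2 the 600 bases run into the neighbouring gene. DTR1 and OSW1, both far higher in the sir2Δhst1Δ libraries, had 0 matches, whereas CHS3 and DIT2, which did not pass, had 2 each. A match is a description of letters and not evidence of binding, and the absence of these letters says nothing about the factors.

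**Figure D2:**
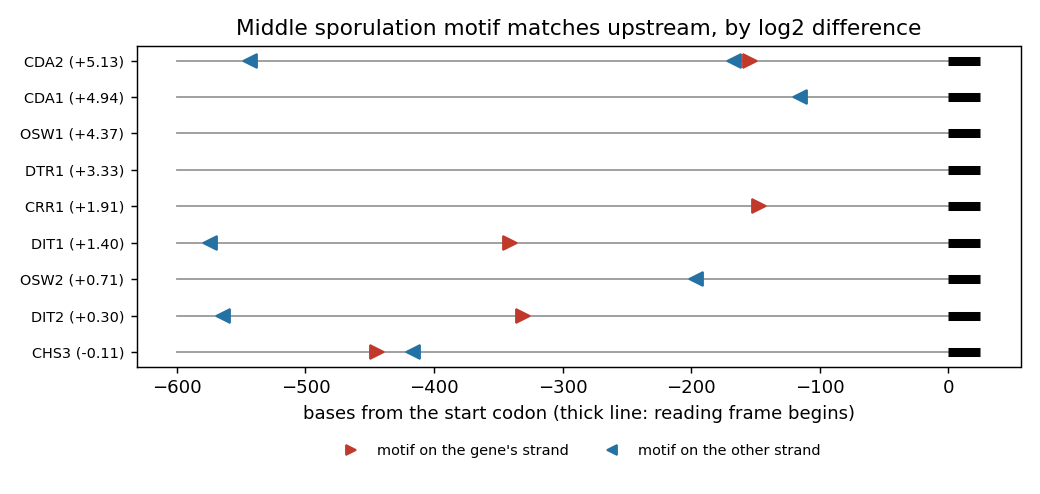
Matches to the 4 core words within 600 bases before the start codon of each gene, with the gene's log2(FPKM + 1) difference, sir2Δhst1Δ minus WT, in brackets; the horizontal axis gives bases from the start codon and triangles mark the strand. CDA2 at 5.13 has 3 matches and OSW1 at 4.37 has 0, and DIT1 and DIT2 share theirs.

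CHS3, the catalytic subunit of chitin synthase III, supplies the chitin that becomes chitosan. Its level was 47.4 and 46.5 FPKM in the sir2Δhst1Δ libraries, against 50.6 and 51.1 FPKM in the WT libraries. Both sir2Δhst1Δ values lay below both WT values, as they did for 31.7% of tested genes, and the difference did not pass (log2 difference -0.11, SE 0.05, 95% interval -0.25 to 0.03, limma adjusted p = 0.234). In WT it was the highest of the 9 genes, near the middle of all tested genes at percentiles 56.1 and 56.6.

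The chitin deacetylases Cda1 and Cda2 turn chitin into chitosan in the spore wall. CDA1 had 100.1 and 100.8 FPKM in the sir2Δhst1Δ libraries, against 1.99 and 2.66 FPKM in the WT libraries. The groups lay far apart, and the ratio of means was 43.2 (log2 difference 4.94, SE 0.11, limma adjusted p = 9.87e-05). CDA1 stood at percentiles 72.6 and 72.1 of all tested genes in the sir2Δhst1Δ libraries, against 3.06 and 4.22 in the WT libraries. CDA2 had 36.5 and 40.2 FPKM in the sir2Δhst1Δ libraries, against 0.136 and 0.101 FPKM in the WT libraries. This was the largest log2 difference of the 9 genes, 5.13 (SE 0.11, limma adjusted p = 9.87e-05). It ranked 8 among the 6370 tested genes, and CDA1 ranked 12. This order depended on the setting. With a pseudocount of 5 CDA1 had the larger log2 difference, 3.85 against 3.08 for CDA2. After quantile normalization the values were 4.67 for CDA1 and 4.55 for CDA2.

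How many reads stand behind the low WT values can be judged from the files. In genes with a few reads, FPKM times gene length fell largely on steps of equal size once the length was cut by 200 bases. Values at a step or midway between steps, within 0.05 of that spacing, made up 68.4% of 19 low genes and 73.1% of 26 in the sir2Δhst1Δ libraries. In the WT libraries they made up 80% of 35 and 82.8% of 29, where 10% would fall there by position alone. Step and cut were those that gave the highest share, so the 10%, which holds for a fixed step, is too low as a level by position alone. Midway values were counted as well, so the step that stands for a single fragment is not settled. Read with these steps, CDA2 rested on about 334 and 340 fragments in the sir2Δhst1Δ libraries, against about 1.5 and 1.0 in the WT libraries. OSW1 rested on about 213 and 206 fragments in the sir2Δhst1Δ libraries, against about 4.00 and 3.00 in the WT libraries. A ratio to so few fragments is imprecise and is not given for these 2 genes. The log2 difference of CDA2 was 7.46 with a pseudocount of 0.1 and 3.08 with a pseudocount of 5, and that of OSW1 was 5.83 and 2.60, and both genes passed with either. For the remaining 7 genes every WT library held at least about 21.0 fragments.

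CDA1 and CDA2 are neighbours on chromosome XII and are both transcribed left to right, with the little-studied reading frame DPA10 (YLR307C-A) between them on the other strand. Their reading frames are 64.4% identical in nucleotides, and the longest identical stretch is 17 bases. DPA10 rose as well, at 137.4 and 138.2 FPKM in the sir2Δhst1Δ libraries, against 20.2 and 19.4 FPKM in the WT libraries (ratio 6.97, limma adjusted p = 9.87e-05). It was higher than either deacetylase gene in all 4 libraries. In R64 it overlaps neither, ending 322 bases from CDA1 and 825 from CDA2, but whether strand was used in counting is not given in the sources used here, so transcripts running on from a neighbour cannot be separated from its own. On the other side of CDA1, UBC12, of the Nedd8-like Rub1 pathway, had 61.5 and 64.1 FPKM in the sir2Δhst1Δ libraries, against 47.0 and 47.9 FPKM in the WT libraries, a rise of 1.32 times (limma adjusted p = 0.0219) that did not pass when any 1 of the 4 libraries was left out. IMH1, beyond CDA2, had 30.2 and 25.6 FPKM in the sir2Δhst1Δ libraries, against 23.4 and 25.3 FPKM in the WT libraries, and did not pass (adjusted p = 0.290).

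Dityrosine is made in the spore cytoplasm by Dit1, which acts on tyrosine to give a formylated precursor, and Dit2, a cytochrome P450 that couples a pair of these. DIT1 had 23.4 and 23.5 FPKM in the sir2Δhst1Δ libraries, against 8.66 and 7.90 FPKM in the WT libraries. It rose 2.83 times (log2 difference 1.40, SE 0.08, limma adjusted p = 0.00122), and all sir2Δhst1Δ values lay above all WT values. DIT2 had 4.98 and 5.07 FPKM in the sir2Δhst1Δ libraries, against 3.86 and 3.90 FPKM in the WT libraries. Its groups did not overlap either, which held upward for 30.5% of tested genes, and its ratio of 1.30 did not pass (log2 difference 0.30, SE 0.11, 95% interval 0.01 to 0.60, limma adjusted p = 0.155). About 78.5 and 73.7 fragments stood behind DIT2 in the sir2Δhst1Δ libraries, against 73.1 and 66.0 in the WT libraries. Its log2 difference was -0.12 after quantile normalization (adjusted p = 0.537), and it passed at an adjusted p of 0.0499 without the variance trend.

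The head-to-head pair thus had unequal values. The FPKM of DIT1 were 4.69 and 4.64 times those of DIT2 in the sir2Δhst1Δ libraries, against 2.24 and 2.03 times in the WT libraries. The ratios of the genotypes did not overlap, but 2 libraries against 2 cannot give a two-sided exact permutation p below 0.333, which is the value here. YDR401W is a name that R64 does not hold and falls between URH1 (YDR400W) and DIT2 (YDR402C) in the order of systematic names. It was listed at 3.14 and 5.91 FPKM in the sir2Δhst1Δ libraries, against 1.41 and 1.83 FPKM in the WT libraries (limma adjusted p = 0.0967). Its position was not checked, and reads that it may share with DIT2 cannot be separated.

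DTR1 encodes the transporter that carries the dityrosine precursor across the prospore membrane to the outside of the spore. It had 53.5 and 53.0 FPKM in the sir2Δhst1Δ libraries, against 4.46 and 4.33 FPKM in the WT libraries. The ratio was 12.1 (log2 difference 3.33, SE 0.07, limma adjusted p = 9.87e-05). DTR1 was thus second to CDA1 among the 9 genes in the sir2Δhst1Δ libraries, where its mean level was above that of CHS3, while in WT it was below CHS3, OSW2, DIT1 and CRR1. Its neighbours FZO1 and RPS6B did not pass, with means of 18.2 FPKM in sir2Δhst1Δ and 17.9 in WT for FZO1 and of 789 FPKM in sir2Δhst1Δ and 829 in WT for RPS6B.

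Among the assembly genes, OSW1, which is needed for the outer spore wall, had 27.0 and 28.3 FPKM in the sir2Δhst1Δ libraries, against 0.421 and 0.354 FPKM in the WT libraries (log2 difference 4.37, SE 0.11, limma adjusted p = 0.000107). CRR1 encodes a putative wall glycosidase related to the chitin transglycosylases Crh1 and Utr2. It had 26.2 and 24.5 FPKM in the sir2Δhst1Δ libraries, against 6.59 and 5.46 FPKM in the WT libraries, a ratio of 4.21 (log2 difference 1.91, SE 0.11, adjusted p = 0.00130). OSW2, also needed for the outer wall, had 16.3 and 15.2 FPKM in the sir2Δhst1Δ libraries, against 9.18 and 9.35 FPKM in the WT libraries. The rise of 1.70 times was the smallest that passed (log2 difference 0.71, SE 0.08, adjusted p = 0.0101). In none of the 3 genes did the genotypes overlap, which held upward for 30.5% of tested genes. With sir2Δhst1Δ replicate 1 or 2 left out, CRR1 (adjusted p = 0.0579 and 0.0542), OSW2 (0.0763 and 0.0677) and DIT1 (0.0506 and 0.0529) no longer passed and kept their size, at 1.87 and 1.96, 0.66 and 0.75, and 1.40 and 1.39 on the log2 scale, and 4 of the 9 genes were called.

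**Figure D3:**
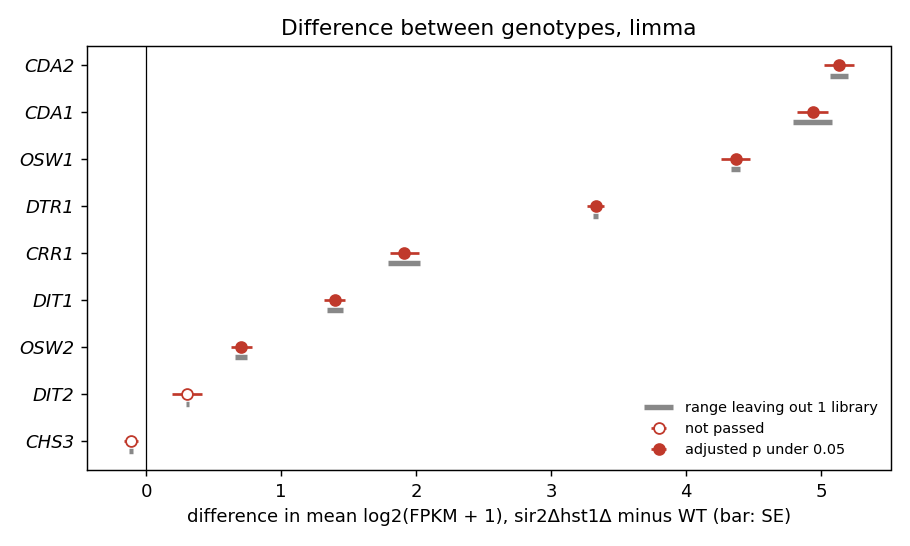
Difference in mean log2(FPKM + 1), sir2Δhst1Δ minus WT, for the 9 genes, with its standard error; filled points passed an adjusted p of 0.05 and grey bars give the range when 1 library is left out. The estimates run from -0.11 for CHS3 to 5.13 for CDA2, and the grey bars stay short beside the spacing of most genes.

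The order of the 9 genes by level differed between the genotypes. In the sir2Δhst1Δ libraries it ran from CDA1 (mean 100.4 FPKM) through DTR1 (53.3), CHS3 (47.0), CDA2 (38.3), OSW1 (27.6), CRR1 (25.4), DIT1 (23.4) and OSW2 (15.7) to DIT2 (5.03). In WT it ran from CHS3 (50.9) through OSW2 (9.26), DIT1 (8.28), CRR1 (6.03), DTR1 (4.40), DIT2 (3.88), CDA1 (2.32) and OSW1 (0.387) to CDA2 (0.119). Between neighbours in either order the ranges of the 2 libraries did not overlap. The 3 genes with the lowest WT level were thus the ones with the largest log2 differences, of which the WT level is itself a part. With a pseudocount of 5 the log2 difference of DTR1 (2.63) was above that of OSW1 (2.60). The levels of the 8 genes other than CHS3 spanned percentiles 5.07 to 72.6 of all tested genes in the sir2Δhst1Δ libraries, against 0.518 to 14.1 in the WT libraries.

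**Figure D4:**
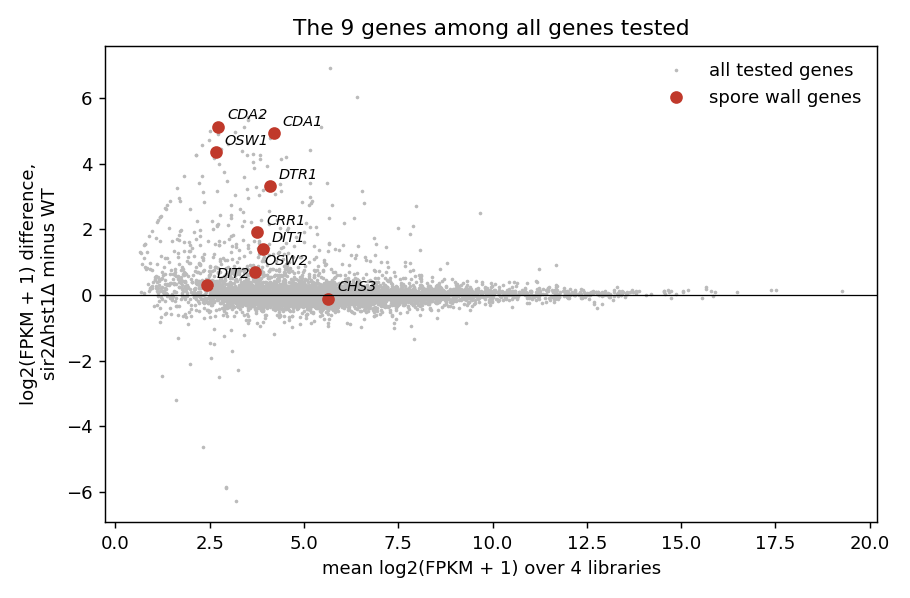
Difference in log2(FPKM + 1), sir2Δhst1Δ minus WT, against the mean of log2(FPKM + 1) over 4 libraries, for all 6370 tested genes (grey) and the 9 spore wall genes (red). CDA1, CDA2, OSW1 and DTR1 sit at the upper edge, and CHS3 and DIT2 lie within the bulk of the genes.

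Beyond the 9, most genes of a list for the spore wall and spore formation rose. The list was drawn up with earlier results of these data known. Of 23 listed, all tested, 17 were higher and 0 were lower (limma, 0 lower also at an unadjusted p under 0.05), with a median log2 difference of 1.97. Among all tested genes 6.75% were higher and 2.79% were lower. LDS1, a spore lipid droplet protein of wall assembly, averaged 95.3 ± 0.817 FPKM in sir2Δhst1Δ and 1.18 ± 0.0335 FPKM in WT (SD, n = 2 libraries each, as for all means here). SPS1, a kinase of spore wall formation, averaged 59.4 ± 4.47 FPKM in sir2Δhst1Δ and 2.40 ± 0.350 FPKM in WT. SPO19, a prospore membrane protein, averaged 26.3 ± 1.96 FPKM in sir2Δhst1Δ and 1.03 ± 0.349 FPKM in WT. GAS4 and GAS2, genes of glucan-modifying enzymes of the spore wall, rose 10.1 and 9.85 times. SPS22 and SPS2, paralogs that act in the glucan layer, rose 11.6 and 5.51 times, and OSW4 7.25 times. OSW5 (71.1 FPKM in sir2Δhst1Δ, 67.2 in WT), RRT8 (51.0 FPKM in sir2Δhst1Δ, 40.7 in WT) and OSW7 (43.9 FPKM in sir2Δhst1Δ, 41.9 in WT) did not pass.

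The chitin machinery beyond CHS3 gave a share of higher calls near that of all genes. Of 17 genes of chitin synthesis, transport and turnover 1 was higher and 0 were lower (3 higher and 4 lower without adjustment). Over all tested genes 6.75% were higher and 2.79% were lower. The median log2 difference of the 17 genes was 0.03. The gene that passed was SHC1, a relative of SKT5 that activates chitin synthase III during sporulation. It averaged 10.6 ± 0.238 FPKM in sir2Δhst1Δ and 6.39 ± 0.291 FPKM in WT (ratio 1.66, limma adjusted p = 0.0197), and it did not pass when any 1 library was left out or after quantile normalization. SKT5 itself, the vegetative activator of Chs3, had 37.0 FPKM in sir2Δhst1Δ and 35.8 FPKM in WT. CHS5, CHS6 and CHS7, which bring Chs3 to the cell surface, had 107.6, 20.0 and 149.98 FPKM in sir2Δhst1Δ, against 113.4, 25.2 and 156.9 FPKM in WT, and none of these 4, named with their values known, passed. Neither did the chitinase gene CTS1 (1547 FPKM in sir2Δhst1Δ, 1676 in WT), GFA1 of UDP-N-acetylglucosamine synthesis (216 FPKM in sir2Δhst1Δ, 211 in WT) or the chitin synthase genes CHS1 (194 FPKM in sir2Δhst1Δ, 213 in WT) and CHS2 (16.0 FPKM in sir2Δhst1Δ, 15.3 in WT). Among the other relatives of the 9 genes, the wall transglycosylase genes CRH1 (549 FPKM in sir2Δhst1Δ, 532 in WT) and UTR2 (1009 FPKM in sir2Δhst1Δ, 928 in WT), the P450 genes ERG5 (269 FPKM in sir2Δhst1Δ, 282 in WT) and ERG11 (1396 FPKM in sir2Δhst1Δ, 1529 in WT), and the DTR1-related transporter genes QDR1 (21.1 FPKM in sir2Δhst1Δ, 17.8 in WT) and QDR3 (20.7 FPKM in sir2Δhst1Δ, 22.4 in WT) did not pass. QDR2, a multidrug and cation exporter gene, fell to 14.9 ± 1.10 FPKM in sir2Δhst1Δ, against 24.4 ± 0.253 FPKM in WT (adjusted p = 0.0114). It did not pass with WT replicate 2 or either sir2Δhst1Δ replicate left out.

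**Figure D5:**
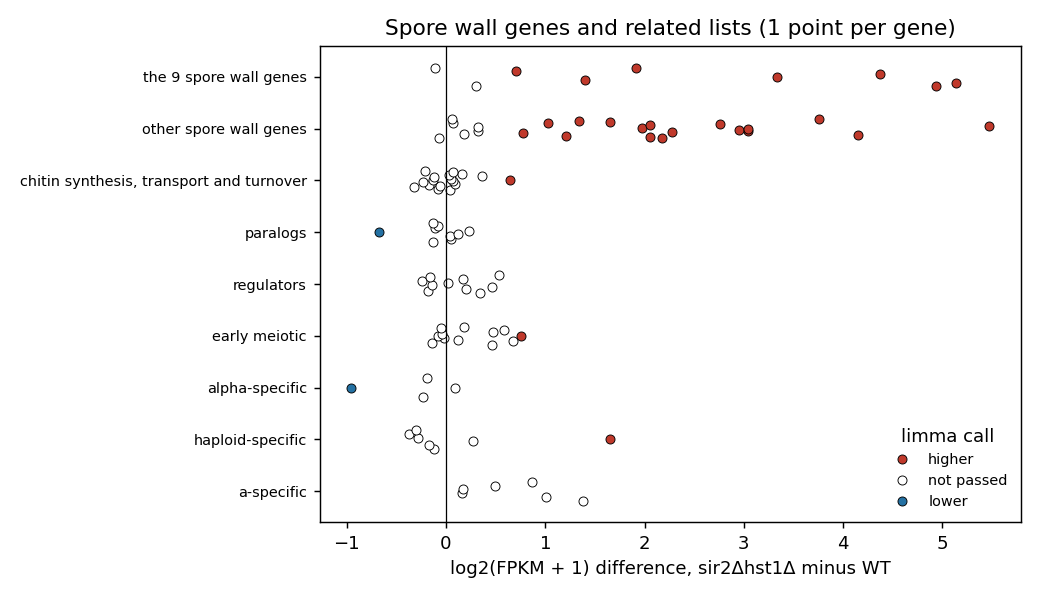
Difference in log2(FPKM + 1), sir2Δhst1Δ minus WT, for each gene of the 9 and of 8 related lists, 1 point per gene, coloured by the limma call. In the rows of spore wall genes most points lie to the right of 0, with 7 of 9 and 17 of 23 higher. In the chitin row 1 of 17 is higher, and over all tested genes 6.75% are.

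The regulators of these genes were measured in the same libraries. SIR2 was listed at 0 in both sir2Δhst1Δ libraries, against 24.3 and 23.8 FPKM in the WT libraries, and HST1 at 0 in both, against 58.2 and 57.8 FPKM in the WT libraries. Of 10 further regulators 0 passed (limma; without adjustment 3 were higher and 1 lower at p under 0.05). SUM1, the DNA-binding partner of Hst1, averaged 30.0 ± 0.686 FPKM in sir2Δhst1Δ and 23.4 ± 1.29 FPKM in WT (limma adjusted p = 0.0501), and RFM1, which links the 2 proteins, 22.9 FPKM in sir2Δhst1Δ and 26.0 FPKM in WT. NDT80, the meiotic activator of middle genes, averaged 28.4 ± 1.71 FPKM in sir2Δhst1Δ and 24.6 ± 1.97 FPKM in WT (adjusted p = 0.201). The early meiotic regulators IME1 (15.9 FPKM in sir2Δhst1Δ, 11.3 in WT) and IME2 (9.96 FPKM in sir2Δhst1Δ, 11.0 in WT) did not pass. UME6 (12.5 FPKM in sir2Δhst1Δ, 12.3 in WT), whose product represses early meiotic genes, did not pass either. Nor did the repressor genes that act on DIT1, RIM101 (37.3 FPKM in sir2Δhst1Δ, 44.2 in WT), TUP1 (61.8 FPKM in sir2Δhst1Δ, 53.2 in WT) and CYC8 (18.6 FPKM in sir2Δhst1Δ, 20.8 in WT), or NRG1 (143 FPKM in sir2Δhst1Δ, 98.5 in WT). With only R64 names tested SUM1, IME1 and NRG1 were higher. SUM1 was so too with a pseudocount of 5, a filter of 5 FPKM or robust eBayes, and NRG1 with the replicate number as a block.

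Markers of cell identity were read beside all tested genes, of which 6.75% were higher and 2.79% were lower. Each list here holds 12 genes or fewer and at most 1 call in the main test, too few to compare with those shares. In the early meiotic list 1 of 12 genes was higher, the recombinase gene DMC1 at 10.4 ± 0.414 FPKM in sir2Δhst1Δ and 5.74 ± 0.183 FPKM in WT, with a list median log2 difference of 0.15. The summed level of that list was 98.1 and 92.7 FPKM in the sir2Δhst1Δ libraries, against 79.8 and 78.5 FPKM in the WT libraries. With only R64 names tested 4 of the 12 were higher. DMC1 did not pass with WT replicate 1 or either sir2Δhst1Δ replicate left out. The 4 alpha-specific genes summed to 4840 and 5508 FPKM in the sir2Δhst1Δ libraries, against 5518 and 5766 FPKM in the WT libraries. Of these 4 genes 1 was lower and 0 were higher (3 lower and 0 higher without adjustment), and 2 were lower after quantile normalization. Of them SAG1, the alpha-agglutinin gene, fell to 165 ± 9.01 FPKM in sir2Δhst1Δ, against 319 ± 22.1 FPKM in WT, and did not pass with either sir2Δhst1Δ replicate left out. The 6 a-specific genes summed to 112 and 106 FPKM in the sir2Δhst1Δ libraries, against 102 and 45.0 FPKM in the WT libraries, with 0 passing (2 higher at an unadjusted p under 0.05) and MFA1 listed at 0 in WT replicate 2. Without WT replicate 1 MFA1 and MFA2 were higher, and without WT replicate 2 AGA2 was higher and MFA1 was lower. Of 7 haploid-specific genes 1 was higher and 0 were lower (2 higher and 4 lower without adjustment), with a median log2 difference of -0.17, and with only R64 names tested 2 were higher and 2 lower. The called gene was FUS1, of mating cell fusion (21.8 ± 2.40 FPKM in sir2Δhst1Δ, 6.27 ± 0.725 in WT), and it did not pass with either sir2Δhst1Δ replicate left out. The part that cell identity has in the spore wall genes was not tested.

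Outside the 9 genes, their 15 nearest neighbours in R64 included 2 that were higher, UBC12 and DPA10, and 0 that were lower. The limit on UBC12 is given above. Of all tested genes, 6.75% were higher and 2.79% were lower, and 15 genes are too few to compare with those shares. Several others lay above WT without passing, among them FRE1 beside CRR1 (151 FPKM in sir2Δhst1Δ, 92.1 in WT, adjusted p = 0.0640), URH1 beside DIT2 (97.8 FPKM in sir2Δhst1Δ, 75.8 in WT, adjusted p = 0.0532) and TUB4 beside CRR1 (48.8 FPKM in sir2Δhst1Δ, 39.0 in WT, adjusted p = 0.0870). Besides IMH1, FZO1 and RPS6B, given above, the rest did not pass either. These were SCO2 and POA1 beside CHS3, SEC63 and TRE2 beside OSW1, NRS1 and SPT8 beside OSW2, and RPB7 beside DIT1. Their log2 differences were between -0.27 and 0.16. The lowest was that of SCO2, where both sir2Δhst1Δ values lay below both WT values (log2 difference -0.27, limma adjusted p = 0.0614). It was thus nearer the threshold than FRE1 and TUB4, in the other direction.

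The genes most like each of the 9 were found by the Euclidean distance of the 4 log2(FPKM + 1) values among 5774 other tested genes with an R64 name. With only 4 libraries, this measures a similar level in each genotype and nothing more. Nearest to CDA1 was YOR011W-A (distance 0.34), to CDA2 the subtelomeric YFR057W (0.15), and to OSW1 YDL114W (0.40). The nearest gene to DTR1 was BNA2 of NAD+ synthesis (0.41), to DIT1 the allantoin permease gene DAL4 (0.14), to CRR1 the RNA-binding protein gene MIP6 (0.09) and to OSW2 the meiotic checkpoint gene PCH2 (0.19). The choice used the same values that give the differences, so the calls of these genes largely follow from it and are no separate result. All 7 of these were higher in sir2Δhst1Δ, though PCH2 did not pass when any 1 library was left out. FAB1 was nearest to DIT2 (0.12) and PGA1 to CHS3 (0.06), and neither of those 2 passed.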

How the data were processed

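Total RNA was sequenced from 2 libraries of each genotype. The authors deposited 1 FPKM value per reading frame and library, and the submitters' processing notes name TopHat2 (2.0.10) and then Cuffnorm (2.2.1). Build, annotation, strand and multi-mapping settings were not given in the sources used. Of 6690 names 6007 matched R64 locus tags, which gave the symbols and upstream sequence, and 683 did not. The deposited FPKM carry no read totals, and steps among low values put the relative depth at 83.1% and 76.7% in the sir2Δhst1Δ libraries and at 89.3% in WT replicate 2, with WT replicate 1 as 100%.

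The filter of 1 FPKM in 2 or more libraries left 6370 genes. From the deposited FPKM, log2(FPKM + 1) values were modelled on genotype alone in limma (3.58.1, R 4.3.3), using eBayes with a trend, for which the prior degrees of freedom were 2.65. Calls needed a Benjamini-Hochberg adjusted p under 0.05. Differences are sir2Δhst1Δ minus WT, and ratios are of mean FPKM; a log2(FPKM + 1) difference understates the change of low genes. The test was also run on simulated data, with independent noise in each library and changes added only to genes above a set WT level. CDA1, CDA2 and OSW1 lie below that level in WT, so that run cannot speak for them. Nor can it speak for the spread between cultures. Similarity was searched with blastn 2.17.0 and motifs with Biopython 1.88. The members, lists and tests were chosen with earlier results of these data known. Named were the 9 genes, their neighbours, paralogs and regulators, up to 8 called and 3 uncalled genes of each other list, and the nearest profile to each gene; SKT5, CHS5, CHS6, CHS7, LDS2, GSC2, AMA1, SMK1, YDR401W and TRP1 fall outside that rule. Also tried were a pseudocount of 0.1 or 5, a looser or stricter filter, quantile or median scaling, eBayes without the trend or robust, a replicate block, leaving out each library and, added after seeing the data, only R64 names.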

Additional observations from a re-analysis of the deposited data

How the results depend on the processing

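Of 125 values of the 9 genes under 14 alternatives, 117 kept their direction and their side of the threshold. DIT1, CRR1 and OSW2 missed it with either sir2Δhst1Δ replicate left out. DIT2 was the one gene to reverse, at -0.12 after quantile normalization, and it passed without the trend. The count of the 9 genes called higher was between 4 and 7 when 1 library was left out, and that of the 23 other spore wall genes between 13 and 17. The cause of these losses was not tested; each such test has 1 library fewer and takes the spread of a single library from the other genotype. Over all tested genes 430 were higher and 178 lower, and between 113 and 327 were higher and between 15 and 45 lower with 1 library left out. After quantile normalization 355 genes were higher, 294 were lower and 0 chitin genes were called, and the share of calls that were higher was 54.7%, against 70.7%. Testing only R64 names gave 512 higher and 297 lower. The called chitin gene count was 0 in all 4 tests with 1 library left out. The labels give same-numbered libraries only a shared number. Their deviations correlated at -0.09, which cannot show whether a preparation or sequencing run was shared. With the replicate number as a block 360 genes were higher and 111 lower, 7 of the 9 genes were higher, and 1 of the 10 regulators, NRG1, was called higher, against 0. CDA2 and OSW1 rest on a few fragments in WT, so their ratios are limited by depth.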

Other observations

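Other spore wall genes that lie side by side in R64 gave unequal values. SPS1 and SPS2 are neighbours, and both rose, to 59.4 ± 4.47 and 31.3 ± 2.01 FPKM in sir2Δhst1Δ, against 2.40 ± 0.350 and 5.68 ± 0.591 FPKM in WT (SD, n = 2 libraries each). LDS2 and RRT8 are neighbours as well. LDS2, a spore lipid droplet gene, rose 4.75 times, to 25.5 ± 1.08 FPKM in sir2Δhst1Δ against 5.37 ± 0.0548 FPKM in WT, whereas RRT8 averaged 51.0 ± 1.38 FPKM in sir2Δhst1Δ and 40.7 ± 4.04 FPKM in WT and did not pass (limma adjusted p = 0.0881). QDR2, which fell, lies beside QDR1, which did not pass at 21.1 ± 0.651 FPKM in sir2Δhst1Δ and 17.8 ± 0.616 FPKM in WT. The difference within these pairs was not tested.

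The gene of the spore-wall glucan synthase subunit GSC2 rose 2.12 times and that of the meiosis-specific anaphase regulator AMA1 3.81 times (4.61 FPKM in sir2Δhst1Δ, 1.21 in WT). SMK1, a kinase of spore wall formation, rose 1.77 times (limma adjusted p = 0.0266). GSC2, AMA1 and SMK1 did not pass with either sir2Δhst1Δ replicate left out, nor did AMA1 after quantile normalization. TRP1, the marker that replaced SIR2, had 134 and 149 FPKM in the sir2Δhst1Δ libraries, against 29.6 and 31.0 FPKM in the WT libraries.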
